A study of Mus musculus with 24 samples.

Results

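Genes of the cortical hem and of its Wnt output were followed through every library of the series: the Wnt ligands *Wnt3a*, *Wnt2b*, *Wnt5a* and *Wnt8b*, the R-spondins *Rspo1*, *Rspo2* and *Rspo3*, the hem transcription factor *Lmx1a*, and the pathway readouts *Axin2* and *Lef1*. They were chosen by gene symbol, and all 10 were found among the 54658 genes of the table. RNA was sequenced from the 3′ end in 24 libraries of mouse dorsal telencephalon, 3 per group. Mutant embryos were homozygous for a *Cep135* null allele, *Cep135*(-/-), a small CRISPR deletion in the second exon carried in every cell, and controls were *Cep135*(+/+) embryos of heterozygous matings on a C57BL/6J background, with no drug given. Cortices were taken at E11.5 and E14.5. At E14.5, cells dissociated from 3 mutant (embryos 1, 2 and 6) and 3 control cortices (embryos 3, 4 and 5) were also grown in suspension with EGF and FGF2 as incipient neurospheres and collected after 12 h and 24 h, so that each of these 6 embryos gave 3 libraries and the cultures are not new embryos.

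The cortical hem is the signaling center at the medial edge of the dorsal telencephalon, between the neocortical primordium and the choroid plexus. It secretes Wnt and Bmp ligands, gives rise to many Cajal-Retzius cells, and is required for the hippocampus to form. Wnt ligands bind Frizzled receptors and Lrp5 or Lrp6 and thereby stabilize β-catenin, which acts in the nucleus with Tcf and Lef factors. R-spondins strengthen the signal by keeping the ligases Rnf43 and Znrf3 from clearing Frizzled receptors off the membrane, and *Axin2*, a feedback inhibitor of β-catenin, is a widely used readout of pathway activity.

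*Wnt8b* lies at chr19:44493472-44514273, *Rspo1* at chr4:124986430-125009099, *Lmx1a* at chr1:167689237-167848741 and *Axin2* at chr11:108920349-108950783, all on the plus strand of GRCm38. *Rspo2* (chr15:43020794-43170826) and *Rspo3* (chr10:29452416-29535867) are on the minus strand. The sequences shown here are the 250 bases before the RefSeq start of 3 hem genes whose levels fell together between E11.5 and E14.5, and of *Axin2* as the pathway readout, 5′ to 3′ on the gene's strand of GRCm38. Capitals mark CTTTG, the core of the site read by Tcf and Lef factors, on either strand.
*Wnt8b* (chr19:44493222-44493471): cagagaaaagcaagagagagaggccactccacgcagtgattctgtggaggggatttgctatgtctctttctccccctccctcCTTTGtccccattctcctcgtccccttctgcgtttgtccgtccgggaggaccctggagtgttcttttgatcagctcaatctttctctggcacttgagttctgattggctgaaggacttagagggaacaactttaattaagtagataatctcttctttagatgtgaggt
*Rspo1* (chr4:124986180-124986429): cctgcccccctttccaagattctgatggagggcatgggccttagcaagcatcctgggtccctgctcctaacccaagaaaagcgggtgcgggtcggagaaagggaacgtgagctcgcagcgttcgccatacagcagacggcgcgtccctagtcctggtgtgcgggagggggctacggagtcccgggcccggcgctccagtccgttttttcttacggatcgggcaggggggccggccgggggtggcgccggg
*Lmx1a* (chr1:167689308-167689557): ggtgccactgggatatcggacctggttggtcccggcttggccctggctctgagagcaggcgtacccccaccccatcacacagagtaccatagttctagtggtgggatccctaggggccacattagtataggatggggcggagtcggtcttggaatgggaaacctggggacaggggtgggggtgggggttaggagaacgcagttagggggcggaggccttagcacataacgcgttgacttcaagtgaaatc
*Axin2* (chr11:108920099-108920348): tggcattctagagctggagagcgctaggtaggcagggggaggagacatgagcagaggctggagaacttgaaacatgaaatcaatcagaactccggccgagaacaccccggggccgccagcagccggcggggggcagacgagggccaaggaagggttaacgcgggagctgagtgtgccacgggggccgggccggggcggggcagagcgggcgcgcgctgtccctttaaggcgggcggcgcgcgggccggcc

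The table of promoters held 7 of the 10 members in 10 entries, 4 of them for *Lef1*. None of the 10 entries held the longer forms CTTTGAT or CTTTGAA on either strand, which 7.48% of all 32851 promoter windows of this length held. The core CTTTG, which every match to the longer forms contains, was found in 48.6% of all windows and in 5 of the 10 entries, the single *Wnt8b* entry and all 4 *Lef1* entries. The *Wnt8b* window was 48.4% G and C, against 66.8% for *Rspo1*, 59.2% for *Lmx1a* and 69.2% for *Axin2*. These matches describe the letters in the windows only.

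Libraries held between 4732781 and 11645213 reads. The 24 h mutant cultures had 7903426 to 11645213 reads and the 24 h control cultures 4732781 to 5709443. *Gm42418*, an abundant noncoding RNA that overlaps ribosomal repeats, took 20.5% to 23.0% of reads in the 24 h mutants and 6.26% to 13.9% in the 24 h controls. *Cep135* mRNA itself ran from 171 to 375 normalized read counts with overlapping genotypes in every condition, and a deletion of this kind leaves the counted 3′ end in place, so its level does not check the labels. The labels of mutant cortex 6 give E14.5 in the title and source and E11.5 in the description. Its sum of 4 neuronal markers lay with the other E14.5 mutants (13044 to 14068 normalized read counts, against 4003 to 6514 in the E11.5 cortices), and it was kept as E14.5. All 3 E14.5 controls were male and 2 of the 3 E14.5 mutants (embryos 1 and 2) were female by *Xist* and Y-linked genes, so that genotype and sex are partly confounded in the E14.5 cortices and in both culture times. A sex term there sets mutant embryo 6 alone against the controls. At E11.5, 2 of 3 controls were male and 2 of 3 mutants female.

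Values are normalized read counts, read counts divided by the size factor of each library, and they compare libraries within a gene, not genes with each other. Log2 fold changes and adjusted p-values come from limma on log2(value + 1) over genes whose mean reached 10 across the compared libraries, adjusted by Benjamini-Hochberg over all of these genes; on this scale the change of low genes is understated. A member passed when its adjusted p was under 0.05. In these bulk samples, a smaller share of expressing cells and less RNA per such cell cannot be told apart.

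*Wnt3a* and *Wnt2b*, the ligands most restricted to the hem and to the adjoining choroid plexus, were at the edge of detection. *Wnt3a* was read at 1.55 to 3.02 in the E11.5 controls and 1.44 to 2.58 in the E11.5 mutants, and at 0 to 1.45 in the E14.5 cortices. *Wnt2b* ranged from 0 to 5.04 over the 12 cortices, with both extremes among the E11.5 controls. Both genes had no read in any of the 12 cultures, which allows up to 2.15 to 5.06 normalized read counts per culture (3 reads, counting error only). Neither reached the mean of 10 in any comparison, so neither was tested and 8 members remained, or 7 where the cultures were compared with each other, since *Rspo1* was then too low as well.

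**Figure D1:**
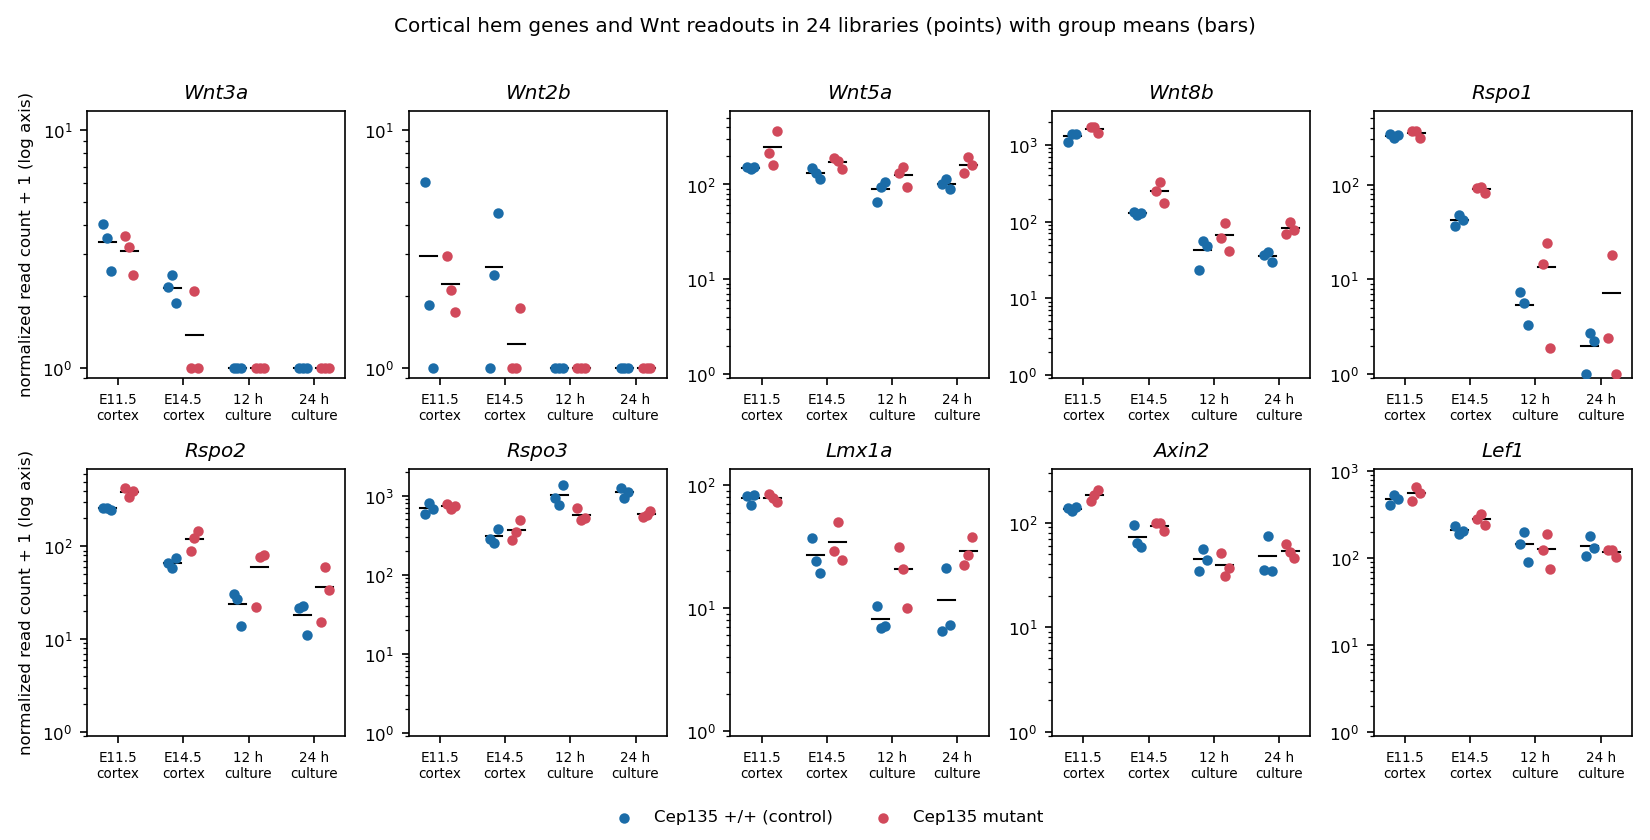
Normalized read count plus 1 (log axis) of the 10 members in the 24 libraries, by condition, with controls in blue, mutants in red, 1 point per library and bars at the group means. *Wnt8b*, *Rspo1* and *Rspo2* stepped down from E11.5 to E14.5 and again in culture, whereas *Rspo3* had its highest group means in the control cultures, at 1020 and 1104.

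Between E11.5 and E14.5 the hem genes fell, led by *Wnt8b*. *Wnt8b*, a ligand of the hem and hippocampal primordium, stood at 1077, 1407 and 1392 in the E11.5 controls and at 1703, 1719.9 and 1423 in the E11.5 mutants. At E14.5 it was 133, 119.8 and 128 in the controls and 247, 331 and 174 in the mutants, so that the lowest E11.5 cortex was above the highest E14.5 cortex. With genotype fitted, *Wnt8b* fell by 3.03 ± 0.15 on the log2 scale (SE), an 8.15-fold decrease (adjusted p = 2.3e-10).

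*Rspo1* followed the same course, with 339, 307 and 334 in the E11.5 controls and 35.3, 46.5 and 41.8 in the E14.5 controls. In the mutants it went from 372, 371 and 310.1 at E11.5 to 90.3, 93.8 and 80.7 at E14.5. The decrease was 5.54-fold (log2 fold change -2.47 ± 0.16, adjusted p = 4.4e-09). *Rspo2* was 261, 258 and 247 in the E11.5 controls and 65.9, 57.3 and 73.2 in the E14.5 controls, and 424, 344 and 398 against 89.2, 121 and 144 in the mutants. It fell 3.58-fold (log2 fold change -1.84 ± 0.12, adjusted p = 5.3e-09), and again no E14.5 cortex reached an E11.5 one.

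The third R-spondin changed less. *Rspo3* was 585, 804 and 667 in the E11.5 controls and 285, 249 and 381 at E14.5, and in the mutants 775, 685 and 739.9 against 273, 346 and 489. Its decrease was 2.15-fold (log2 fold change -1.10 ± 0.14, adjusted p = 5.8e-06), and the stages did not overlap. *Lmx1a*, the LIM-homeodomain factor that specifies hem fate, ranged from 67.7 to 83.9 in the 6 E11.5 cortices and from 18.3 to 49.7 in the 6 at E14.5. It fell 2.67-fold (adjusted p = 2.2e-05).

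The readouts fell as well. *Axin2* ranged from 128 to 202 at E11.5 and from 57.5 to 97.2 at E14.5, a 1.93-fold decrease (adjusted p = 1.2e-05). *Lef1*, a nuclear partner of β-catenin, ranged from 407 to 660.3 and from 189 to 320.2, a 2.12-fold decrease (adjusted p = 9.9e-07). *Wnt5a*, which acts largely through noncanonical routes, was the exception, at 146 to 369 at E11.5 and 114 to 189.7 at E14.5, with a log2 fold change of -0.33 ± 0.16 (adjusted p = 0.107). In all, 7 of the 8 members tested fell, where 29.3% of the 13650 genes tested did, and the median log2 fold change was -1.26 for the members and -0.08 for all genes. Without E11.5 mutant 2, *Wnt5a* passed as well (log2 fold change -0.43, adjusted p = 0.032). Markers of other cells also shifted with stage. The sum of 4 neuronal markers was 4003 to 6514 at E11.5 and 13044 to 18067 at E14.5, with all 4 past the threshold, higher. Of 6 meningeal and mesenchymal markers 5 passed lower and 1 higher. The part of such shifts in the members' decreases was not tested. Embryos taken at E11.5 and at E14.5 cannot share a litter, so stage and litter cannot be told apart.

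The next question was whether loss of *Cep135* changed these genes in the cortex. At E11.5 none of the 8 members tested passed, with 0.0149% of all 13406 genes passing. All 8 point estimates were positive, as were 52.9% of those of all genes, with a median of 0.28 on the log2 scale against 0.02 for all genes. *Rspo2* gave the smallest p, with 247 to 261 in the controls and 344 to 424 in the mutants (log2 fold change 0.60 ± 0.12, adjusted p = 0.316). Every mutant lay above every control for *Wnt5a*, *Wnt8b*, *Rspo2* and *Axin2*, and for 7.16% of all genes. *Rspo1* (0.10 ± 0.12), *Rspo3* (0.11 ± 0.13) and *Lmx1a* (0.02 ± 0.17) had intervals that reached from below 0 to at most 0.40 on the log2 scale.

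At E14.5 the distances were larger, and still no member passed, where 0.0736% of 13583 genes did. *Rspo1* was 35.3 to 46.5 in the controls and 80.7 to 93.8 in the mutants, 2.12-fold higher (log2 fold change 1.09 ± 0.21, adjusted p = 0.162). *Wnt8b* was 119.8 to 133 against 174 to 331 (0.93 ± 0.22, adjusted p = 0.282), and *Rspo2* 57.3 to 73.2 against 89.2 to 144 (0.82 ± 0.22, adjusted p = 0.350). *Lef1* was 189 to 235 against 239 to 320.2 (0.42 ± 0.16, adjusted p = 0.509). These 4 members had every mutant above every control, as had 7.02% of all genes. *Rspo3*, *Lmx1a*, *Axin2* and *Wnt5a* overlapped between genotypes, with estimates of 0.26, 0.35, 0.39 and 0.37.

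The call at E14.5 depended on the model. edgeR on the recovered reads called no member, and DESeq2 called *Wnt8b* (adjusted p = 0.020) and *Rspo1* (adjusted p = 0.040). Without mutant cortex 6, whose labels disagree, *Wnt8b* passed in limma (log2 fold change 1.17, adjusted p = 0.040). The mutants left were female and the controls male, so genotype and sex cannot be told apart in that fit. With a term for embryo sex, the estimates were 0.45 for *Wnt8b* and 0.96 for *Rspo1*. They rest on mutant 6 alone, the only male mutant, against the 3 male controls. Over all alternatives and single omissions, adjusted p ran from 0.020 to 0.999 for *Wnt8b* and from 0.040 to 0.999 for *Rspo1*.

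Over the 12 cortices together, with stage fitted, *Rspo2* alone passed, where 0.139% of 13650 genes did. It was 1.64-fold higher in the mutants (log2 fold change 0.71 ± 0.12, adjusted p = 0.0247), and higher in every mutant than in every control of its stage. *Wnt8b* showed the same separation at both stages (0.63 ± 0.15, adjusted p = 0.185), which 0.813% of all genes did, and *Rspo1* had an estimate of 0.59 ± 0.16 (adjusted p = 0.248). The *Rspo2* call was lost with a sex term (log2 fold change 0.73, adjusted p = 0.242), with all 24 libraries in 1 fit (0.71, adjusted p close to 1), and without any 1 of 7 cortices, E11.5 controls 1 and 3, E11.5 mutants 1 and 3, E14.5 controls 3 and 4 and E14.5 mutant 2 (adjusted p = 0.0640 to 0.112); over all single omissions the estimate stayed between 0.63 and 0.78. The difference between the stages in the genotype effect was largest for *Rspo1* (0.99 ± 0.21, adjusted p = 0.423), and no member and 0% of all genes passed that limma test (2 members and 1070 genes at an unadjusted p under 0.05).

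**Figure D2:**
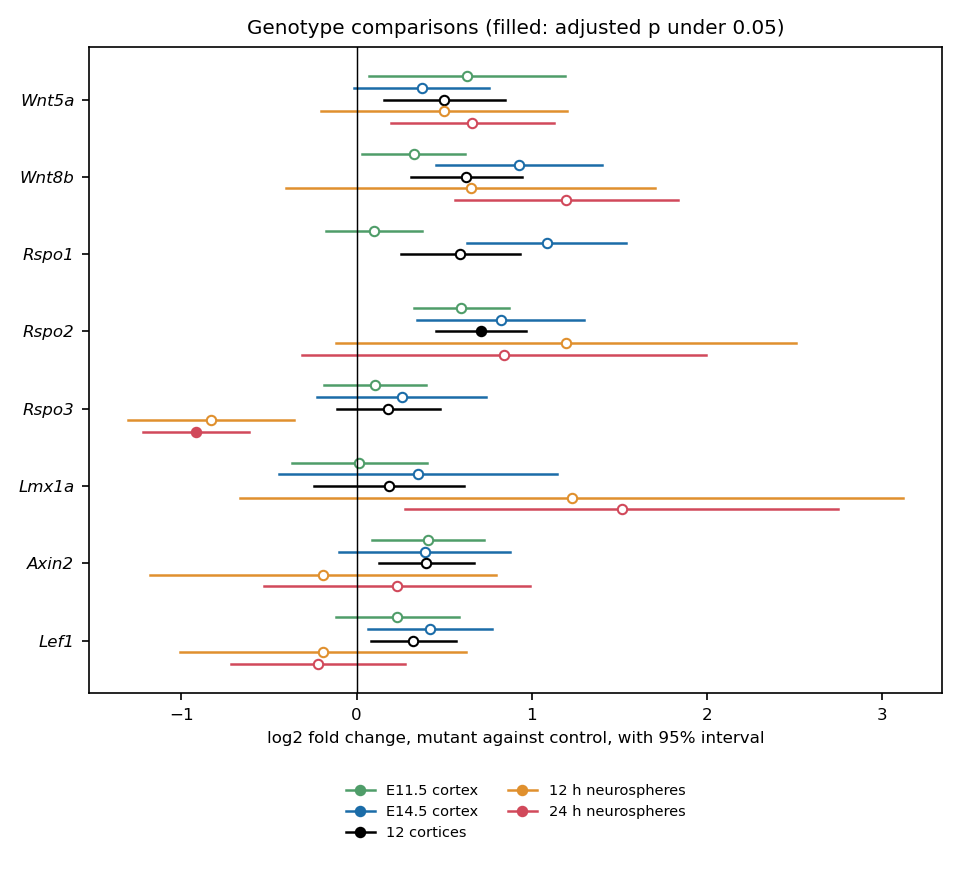
Log2 fold change of mutant against control (horizontal axis) for the 8 tested members, with 95% intervals from limma; colors are the 5 genotype comparisons and filled points have an adjusted p under 0.05. Cortex estimates are all above 0, as are 52.9% (E11.5), 51.7% (E14.5) and 52.5% (12 cortices) of those of all genes. *Rspo2* passed in the 12 cortices at 0.71 and *Rspo3* in the 24 h cultures at -0.92.

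The summed level of the 8 hem ligands, R-spondins and *Lmx1a*, which restates the values of these members, was 630.1 to 761 in the E14.5 controls and 918 to 1121 in the mutants, and 2504 to 2993 against 3314 to 3575 at E11.5. The order was the opposite in culture, where *Rspo3* made up most of the sum: 953 to 1524 in the 12 h controls against 742 to 942 in the mutants, and 1139 to 1420.1 against 773 to 959.5 at 24 h. Without *Rspo3* the sum of the remaining 7 was 132 to 186 against 222 to 366 at 12 h and 135 to 195 against 236 to 393 at 24 h. Markers of other cells also differed between the genotypes in the cortices. The sum of 7 Cajal-Retzius markers, among them *Reln* and *Trp73*, was 825 to 1008 in the E14.5 controls and 1280.2 to 1667 in the mutants, with 5 of the 7 genes higher in every mutant and none past the threshold. The sum of 8 choroid plexus markers was 838 to 959 against 1117 to 1192 at E11.5. At E14.5 it was 3275, 5229 and 5508 in the controls and 7888 and 6654 in mutants 1 and 2, but 901 in mutant 6, whose *Rspo1* (80.7) and *Rspo2* (144) were nonetheless above every control. The sum of 4 neuronal markers was 16497 to 18067 in the E14.5 controls and 13044 to 14068 in the mutants, with 1 of the 4 genes past the threshold, lower. At E11.5 the sum of 6 ventral telencephalic markers was 1245 to 1503 in the controls and 896 to 1053 in the mutants, and that of 5 endothelial markers 945 to 1041 against 1086 to 1218. Liver markers summed to 825 and 837 in 2 of the E14.5 controls and to at most 13.5 in the mutants. The part of cell composition in the members' differences was not tested.

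**Figure D3:**
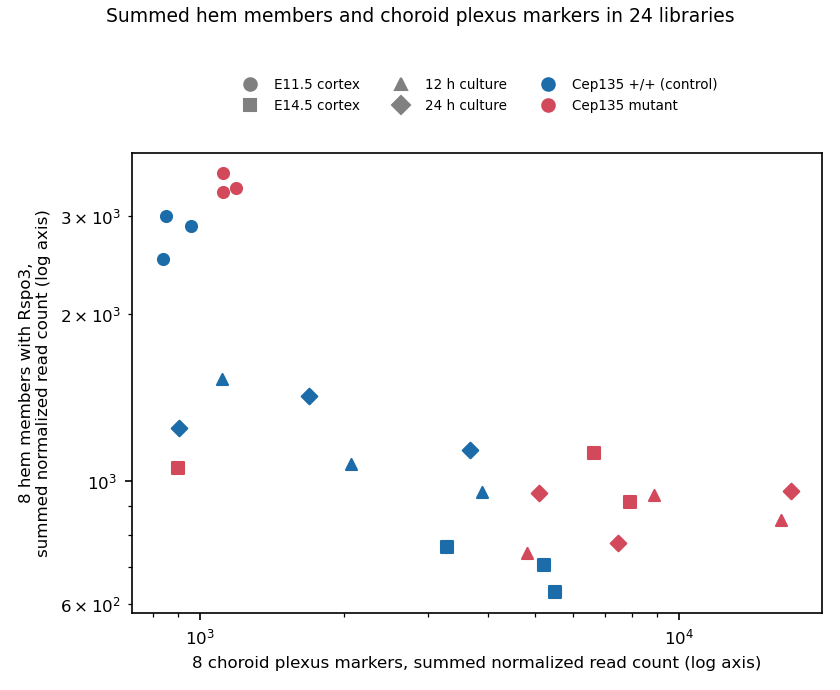
Summed normalized read counts of the 8 hem members, *Rspo3* included (vertical, log axis) against 8 choroid plexus markers (horizontal, log axis), 1 point per library, with shape for condition and color for genotype. The mutants lie above the controls on the hem axis in the cortices and below them in the cultures, where *Rspo3* leads the sum, and E14.5 mutant cortex 6 stands apart at 901 on the choroid plexus axis.

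Culture changed all 8 members tested, and sent *Rspo3* the opposite way from the rest. Comparing 12 h neurospheres with the E14.5 cortices of the same embryos, 7 members fell, where 16.1% of 13601 genes did, and 1 rose, where 14.1% did. *Rspo1* was close to lost, at 6.29, 4.70 and 2.28 in the control and 13.6, 23.1 and 0.90 in the mutant cultures. Its log2 fold change was -3.19 ± 0.50 (adjusted p = 0.00022). By 24 h it was 0, 1.69 and 1.25 in the controls and 1.43, 17.2 and 0 in the mutants, so that culture 2 was alone in keeping more than a few reads.

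*Wnt8b* was 22.0, 55.2 and 47.1 in the 12 h controls and 59.5, 95.8 and 40.3 in the 12 h mutants, each below the cortex of its embryo. It fell 3.55-fold (adjusted p = 7.0e-05). *Rspo2* was 29.9, 25.8 and 12.9 against 21.5, 75.8 and 79.7 and fell 2.57-fold (adjusted p = 0.0043), again in 6 of 6 embryos. *Lmx1a* fell 2.40-fold (adjusted p = 0.022), *Axin2* 1.98-fold (adjusted p = 0.0045), *Lef1* 1.87-fold (adjusted p = 0.0072) and *Wnt5a* 1.44-fold (adjusted p = 0.030). *Lmx1a* and *Wnt5a* were the least secure. *Lmx1a* lost its call under quantile normalization (adjusted p = 0.067), and both lost it, at just over 0.05, without the filter on low values. Single omissions ended it for *Lmx1a* without cortex control 3, control 4 or mutant 2 (adjusted p = 0.051 to 0.067), and for *Wnt5a* without cortex control 3, control 4, mutant 1 or mutant 2 or 12 h control 3 (adjusted p = 0.061 to 0.074).

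*Rspo3* rose in the same cultures. It went from 285 to 942, from 249 to 768 and from 381 to 1351 in control embryos 3, 4 and 5, that is 3.31-, 3.08- and 3.55-fold. In mutant embryos 1, 2 and 6 it went from 273 to 686, from 346 to 485 and from 489 to 519.5, or 2.51-, 1.40- and 1.062-fold. Every embryo was higher in culture, and every control embryo had a larger factor than every mutant embryo, as it had for 4.9% of the 13601 genes. With genotype fitted the increase was 2.26-fold (log2 fold change 1.18 ± 0.22, adjusted p = 0.00076). The genotype difference in this response was -1.09 ± 0.34 on the log2 scale (adjusted p = 0.793, and 0.780 with embryo as a block), and no member and 0% of all genes passed that limma test (1 member and 724 genes at an unadjusted p under 0.05). On the recovered reads edgeR called 1 gene and DESeq2 called 5.

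**Figure D4:**
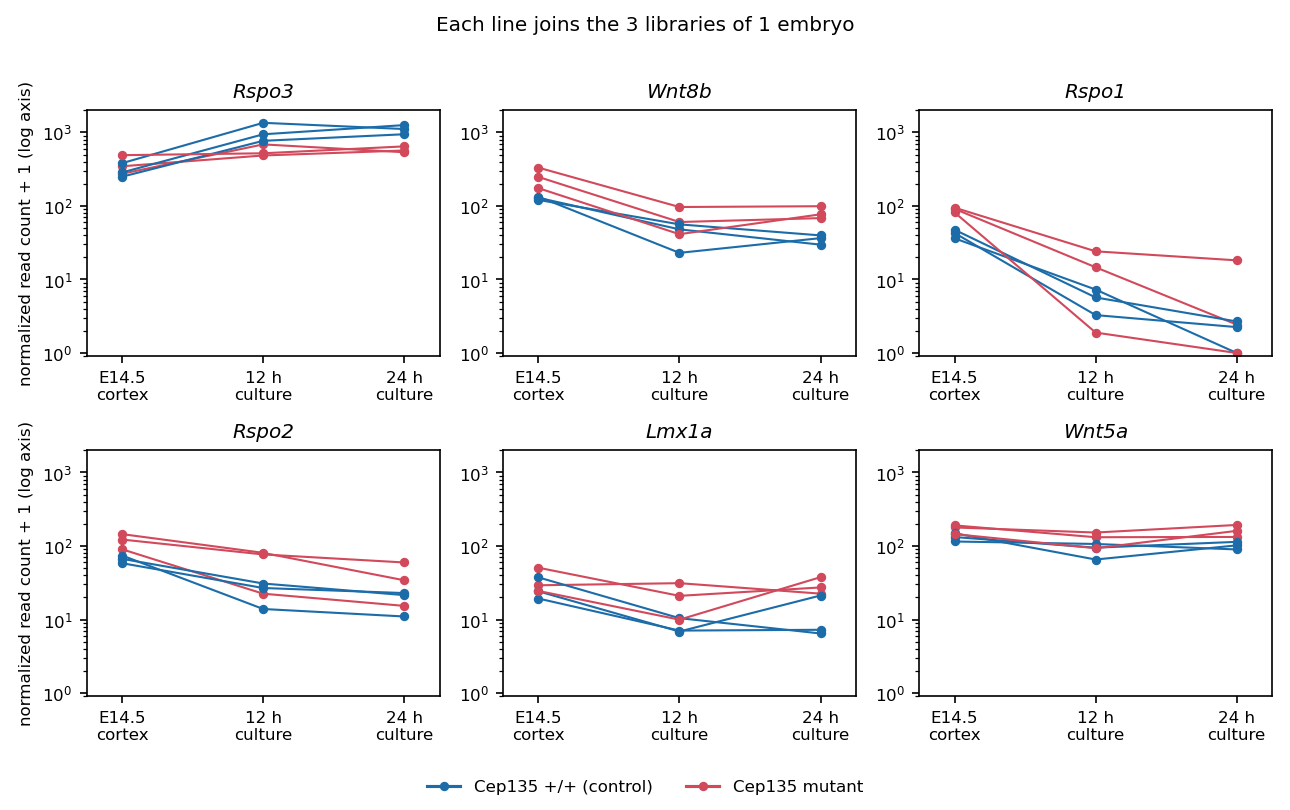
Normalized read count plus 1 (log axis) of 6 members in the E14.5 cortex and the 12 h and 24 h cultures; each line joins the 3 libraries of 1 embryo, with controls in blue and mutants in red. *Rspo3* goes up in all 6 embryos at 12 h and separates by genotype, whereas *Wnt8b*, *Rspo1* and *Rspo2* go down in all 6.

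Markers of the tissue around the cortex were lower in the cultures. The sum of 6 meningeal and mesenchymal markers, all 6 of which fell, was 1529 to 2571 in the E14.5 cortices and 118 to 256 at 12 h, and the sum of 5 endothelial markers 793 to 933 against 24.3 to 102. Their part in the decreases was not tested, and dissociation and medium cannot be told apart from culture.

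From 12 h to 24 h no member passed, where 0.292% of 13359 genes did, and none of the 7 tested had an unadjusted p under 0.05; edgeR and DESeq2 called none either. *Rspo3* stayed at 944, 1111 and 1258 in the controls and 537, 567 and 645 in the mutants. Its log2 fold change was 0.10, with a 95% interval from -0.18 to 0.38. The interval for *Lmx1a* was far wider, from -0.52 to 1.45.

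**Figure D5:**
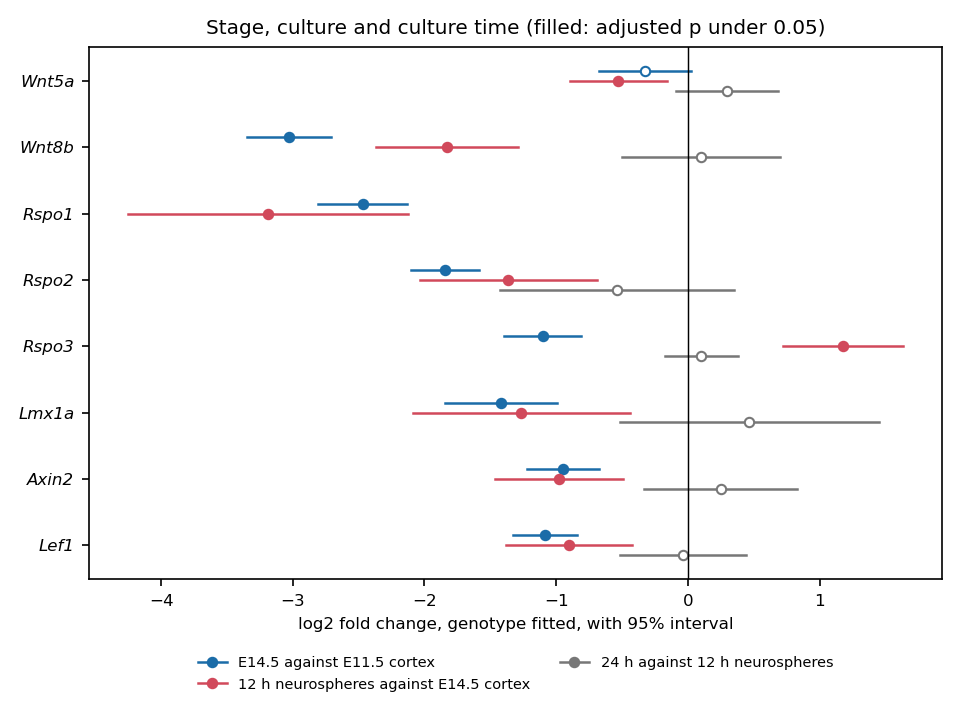
Log2 fold changes (horizontal axis) of the 8 tested members for stage, culture and culture time, with 95% intervals from limma and filled points for an adjusted p under 0.05. *Wnt8b* fell by 3.03 with stage and by 1.83 with culture, *Rspo3* fell by 1.10 and then rose by 1.18, and no point of the 24 h against 12 h comparison is filled.

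In the 12 h cultures no member differed past the threshold between genotypes, nor did any gene in limma (0% of 13389, with 650 genes and 1 member at an unadjusted p under 0.05). edgeR called no gene, and DESeq2 called 9 genes and no member. That member was *Rspo3*, at 768, 942 and 1351 in the controls and 485, 519.5 and 686 in the mutants (log2 fold change -0.83 ± 0.22, adjusted p = 0.913). It was the single member with every mutant below every control, a pattern of 5.94% of all genes, and no member had every mutant above every control, as 5.09% of genes had. The sum of 8 choroid plexus markers was 1113 to 3875 in the 12 h controls and 4814 to 16314 in the 12 h mutants. All 5 of these markers that were tested were higher, 3 of them in every mutant, and none passed. The part of this difference in the members' values was not tested.

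At 24 h *Rspo3* passed, where 0.271% of 13300 genes did. It was 1.89-fold lower in the mutants (log2 fold change -0.92 ± 0.14, adjusted p = 0.0150), and the groups were well apart, as the values above show. It lost the call with a term for the *Gm42418* share (-0.65, adjusted p = 0.939) and with all 24 libraries in 1 fit (adjusted p = 0.053). The call was also lost without control 3, control 5 or mutant 2 (adjusted p = 0.056 to 0.103). With a sex term, which sets mutant 6 alone against the controls, the *Rspo3* estimate was -0.76. With 1 mutant, that fit cannot decide whether the call held. The change of the genotype effect from 12 h to 24 h was -0.08 ± 0.27 (adjusted p close to 1), and no member and 0% of genes passed it in limma, with 318 genes at an unadjusted p under 0.05 and none called by edgeR or DESeq2.

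No other member passed at 24 h. *Wnt8b* was 35.5, 38.8 and 28.8 in the controls and 67.4, 98.2 and 75.95 in the mutants (log2 fold change 1.198 ± 0.30, adjusted p = 0.111), and DESeq2 called it (adjusted p = 0.046). *Lmx1a* was 5.46, 20.2 and 6.25 against 21.5, 26.3 and 36.7 (1.51 ± 0.58, adjusted p = 0.356), and *Wnt5a* 88.8 to 113 against 132 to 192 (0.66 ± 0.22, adjusted p = 0.272). These 3 had every mutant above every control, as had 7.15% of all genes, and *Rspo3* every mutant below, as had 9.06%. *Rspo2* overlapped, its lowest mutant (14.3) lying under the highest control (21.9), and *Axin2* and *Lef1* overlapped as well.

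Markers of other tissue differed with the 24 h genotype. The choroid plexus sum was 903 to 3659 in the controls and 5095 to 17111 in the mutants, with all 5 of the 8 markers that were tested higher in every mutant and 2 past the threshold. The sum of 6 liver markers was 1.69 to 6.83 in the controls and 101 to 319.5 in the mutants, and reached 1181 in a 12 h control. Depth and the *Gm42418* share also separated these groups, as given above. With a term for the *Gm42418* share, the log2 fold change at 24 h was 0.85 for *Wnt8b*, 0.39 for *Wnt5a*, 0.06 for *Lmx1a* and 0.07 for *Rspo2*, with standard errors of 0.47 to 1.17. The part of the choroid plexus, liver and depth differences was not tested.

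Within the cortices, members did not vary as 1 block. After the mean of each stage and genotype was taken out of the log2 values, *Rspo2* and *Rspo3* deviated most alike (Pearson r = 0.84 over 12 libraries in 4 groups). *Lmx1a* deviated with *Axin2* (r = 0.67) and with *Wnt8b* (r = 0.62), and *Wnt8b* with *Lef1* (r = 0.63). *Rspo1* ran against *Axin2* (r = -0.51). The median over all 28 pairs was -0.10, and libraries share depth and dissection, so these values are descriptions without a test. Set against the mean deviation of the 6 hem members, the genes most alike among 13650 were *Bcl2l11* (r = 0.94), *H2-K1* (0.92), *Tubb6* (0.91), *Pygl* (0.91) and *Cd93* (0.90), whereas the hem members themselves ran from 0.06 (*Rspo1*) to 0.63 (*Wnt8b*).

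The wider pathway was read through 8 lists of 105 genes in all. Between genotypes none of their genes passed in limma at E11.5 (of 83 tested), at E14.5 (of 77), over the 12 cortices (of 81) or at 12 h (of 71, with 9 at an unadjusted p under 0.05). At 24 h 3 of 69 passed. *Wnt7b*, a ligand made by cortical neurons, was 589, 719.6 and 629 in the controls and 406, 293 and 331 in the mutants (log2 fold change -0.92 ± 0.16, adjusted p = 0.029). *Sostdc1*, a secreted Wnt and Bmp antagonist, was 53.3, 92.7 and 42.5 against 221, 1115 and 218 (2.65 ± 0.48, adjusted p = 0.041), and *Dmrta2*, a factor of the medial pallium, 445 to 525 against 762 to 946 (0.81 ± 0.14, adjusted p = 0.032). The choroid plexus marker *Ttr* was likewise highest in mutant 2 (16344, against 7142 in mutant 1 and 4826 in mutant 6). The part of choroid plexus in the *Sostdc1* difference was not tested. With the *Gm42418* term all 3 lost the call, at log2 fold changes of -1.18 for *Wnt7b*, 1.057 for *Dmrta2* and 1.78 for *Sostdc1*. With the sex term, which sets mutant 6 alone against the controls and so cannot decide whether a call held, the estimates were -0.96 for *Wnt7b*, 1.004 for *Dmrta2* and 1.86 for *Sostdc1*. *Sostdc1* lost it also with all 24 libraries in 1 fit (adjusted p = 0.142), with a pseudocount of 0.1 (0.0504) and under quantile normalization (0.0517). Single omissions left *Dmrta2* past the threshold in 0 of 6 fits (adjusted p = 0.051 to 0.126), *Wnt7b* in 1 of 6 (0.029 to 0.122) and *Sostdc1* in 3 of 6 (0.020 to 0.115).

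In the genes that did not pass, the smallest p of each list in the cortices was found for *Bmp7* at E11.5 (log2 fold change 0.74 ± 0.16, adjusted p = 0.380), a Bmp ligand of the hem, for the ligand escort *Wls* at E11.5 (0.41, adjusted p = 0.632), for the acyltransferase *Porcn* at E14.5 (-0.67, adjusted p = 0.463) and for the receptor *Fzd8* at both stages (-0.45 and -0.29, adjusted p = 0.676 and 0.560). Among the other canonical readouts the median was 0.23 at E11.5 (9 genes) and 0.06 at E14.5 (8 genes), and *Id2* gave the smallest p at both stages, with 0.50 and -0.54 (adjusted p = 0.585 and 0.451). The remaining lists were led at E11.5 by *Wnt6* (2.03), *Axin1* (0.29), *Pygo2* (0.37) and *Sostdc1* (0.72), with adjusted p of 0.585 to 0.681. At E14.5 they were led by *Wnt7b* (-0.35), *Ctnnb1* (-0.38), *Pygo1* (-0.24) and *Sfrp1* (0.31), with adjusted p of 0.509 to 0.588. Over the 12 cortices the genes were *Wnt3* (0.57), *Porcn* (-0.32), *Fzd8* (-0.37), *Dvl1* (-0.32), *Tcf7* (0.68), *Kremen1* (-0.35) and *Sp5* (0.48), with adjusted p of 0.443 to 0.755. At 12 h they were *Wnt7b* (-0.23), *Wls* (0.62), *Fzd9* (-1.26), *Apc2* (-0.28), *Tle4* (0.18), *Sostdc1* (1.84), *Nkd1* (2.24) and *Bmp2* (1.98), with adjusted p of 0.913 to 0.916. At 24 h, where no gene of the list passed, they were *Wls* (0.48), *Znrf3* (0.76), *Apc* (-0.18), *Tcf7l2* (0.92) and *Cd44* (1.061), with adjusted p of 0.111 to 0.622.

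With stage, 62 of 81 list genes passed, 48 lower and 14 higher, where 29.3% of all genes were lower and 23.8% higher. Receptors and coreceptors had 14 lower and 1 higher of 18, with *Fzd10* (log2 fold change -2.66), *Fzd7* (-1.36) and *Ror2* (-1.21) lower and *Fzd9* (0.90) higher. Hem and medial pallium factors and Bmps had 11 lower and 2 higher of 15, among them *Bmp4* (-2.42), *Msx1* (-2.20) and *Gli3* (-1.15) lower and *Emx1* (0.68) higher. Secreted antagonists had 6 lower and 1 higher of 9, with *Dkk2* (-2.67) and *Sfrp2* (-1.40) lower and *Draxin* (2.36), an axon guidance factor that also inhibits Wnt, higher. The remaining ligands had 3 lower, among them *Wnt3* (-2.34) and *Wnt5b* (-1.68), and 1 higher, *Wnt7a* (1.04), of 6. *Wls*, which carries Wnt ligands to the surface, fell by 1.30 on the log2 scale and *Porcn* rose by 0.80. Of the other readouts, *Ccnd1* (-2.91) and *Sp5* (-1.07) were among 5 lower and *Ccnd2* (0.48) and *Id2* (0.58) were the 2 higher of 8. The cytoplasmic relay was split, 3 lower and 4 higher of 12, with *Apc* (1.15) and *Apc2* (1.42) higher, and nuclear partners had 5 lower, led by *Tcf7l1* (-1.43), and 2 higher of 11.

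With culture, 30 of 75 list genes passed, 22 lower and 8 higher, where 16.1% of all genes were lower and 14.1% higher. *Wnt7b* (log2 fold change -1.27) and *Wnt5b* (-1.84) fell, as did 4 of 14 receptors, led by *Fzd8* (-2.41) and *Fzd2* (-1.32). Secreted antagonists had 5 lower and none higher of 9, *Dkk3* (-3.93) and *Sfrp1* (-1.46) among them. Among the readouts, *Cd44* (2.54), *Id2* (1.08) and *Ccnd1* (0.69) rose and *Nkd1* (-2.23), *Tnfrsf19* (-1.32) and *Ccnd2* (-0.80) were among 5 that fell, the direction of *Axin2* and *Lef1*. Hem and medial pallium factors had 3 lower of 14, *Msx1* (-1.49), *Emx1* (-1.11) and *Gli3* (-0.71). From 12 h to 24 h *Ccnd1* rose by 0.70 and *Dmrta2* fell by 0.62 on the log2 scale, and the other 67 of 69 did not pass.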

How the data were processed

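The deposited table held normalized values, read counts that the authors divided by the size factor of each library (a signal that is not whole-numbered), for 24 libraries. The authors sequenced QuantSeq 3′ FWD libraries, aligned reads with TopHat2 2.0.10 (with SAMtools 0.1.19 and Bowtie 1.0.0) to GRCm38, counted them by strand with HTSeq 0.6.1 on GENCODE and normalized them with DESeq2. Each library's step gave the whole reads behind its values in 23 of the 24 libraries; E11.5 control 1 did not give accepted whole reads, so edgeR and DESeq2 were run only without the E11.5 cortices. limma 3.58.1 with a mean-variance trend in R 4.3.3 was fitted on log2(value + 1) to the libraries of each of 11 comparisons, for genes whose mean reached 10, after checks on simulated data. All members are named. Of each list the text names genes among the 3 of smallest p per direction past an adjusted p of 0.05, between genotypes also the gene of smallest p where none passed, and the 5 genes most like the hem members. The members, lists and tests were chosen with earlier results of these data known, and the *Gm42418* term after seeing the data. E11.5 replicates were numbered in accession order. E14.5 cortex and culture libraries with the same number come from the same embryo; their deviations from the group means had correlations of -0.11 to 0.24 (median 0.14, 18 pairs). No 2 libraries were identical. Promoters are from RefSeq on GRCm38 and gene positions from GENCODE vM21. Embryos are the replicates. Where embryos share a litter, p-values measure the spread within it. All E14.5 embryos, with their cortices and cultures, carry the same title prefix, taken as the litter, which the labels do not state. Results of 1 list gene are not reported here.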

Additional observations from a re-analysis of the deposited data

How the results depend on the processing

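Members past the threshold were counted again under other pseudocounts (0.1 and 5), filters (none, or a mean of at least 1), recomputed size factors, quantile normalization, all 24 libraries in 1 fit, a sex term, a litter block at E11.5, a *Gm42418* term chosen after seeing the data, and single omissions. At E14.5 the count went from 0 to 2 with DESeq2, and from 0 to 1 over single omissions. At 24 h, with the sex term left aside, the count of 1 became 2 with DESeq2 and 0 with all libraries in 1 fit and the *Gm42418* term (0 to 1 over omissions). Fits with the sex term at E14.5 and in the cultures rest on mutant 6 alone among the mutants, so they cannot decide whether a call held. Over the 12 cortices the count of 1 became 0 with all libraries in 1 fit and with the sex term (0 to 1 over omissions). Counts ran from 7 to 8 for stage and from 6 to 8 for culture, and stayed at 0 for E11.5, 12 h, culture time and the 3 genotype differences. Estimates that turned sign, none of them past the threshold, were *Lmx1a* at E11.5 with the *Gm42418* term (-0.10; over omissions -0.074 to 0.072) and at E14.5 with the sex term (-0.085), *Axin2* at 24 h with the *Gm42418* term (-0.94), and over omissions *Rspo3* at E11.5 (-0.00051 to 0.23), *Lef1* at 12 h (-0.51 to 0.14), and *Lef1* (-0.18 to 0.11) and *Wnt8b* (-0.065 to 0.24) between 12 h and 24 h; the cause was not tested. With embryo as a replicate block, all 8 members kept their calls in culture and 0 passed in culture time; over all genes the block gave 3885 calls in place of 4107 for culture, 104 in place of 39 for culture time, 3 in place of 0 for genotype by culture and 0 for genotype by culture time. Counts over all genes ran from 0 to 17 at E11.5 (2 as reported), 1 to 74 at E14.5 (10), 0 to 182 at 12 h (0), 0 to 182 at 24 h (36), 6 to 35 over the 12 cortices (19), 19 to 160 for culture time (39), 0 to 1 for genotype by stage (0), 0 to 5 for genotype by culture (0) and 0 to 2 for genotype by culture time (0). The litter block used the prefix of the sample titles, taken as the litter, which the labels do not state. The descriptions of E11.5 mutants 2 and 3 give another prefix. Read as a litter, it could not be told apart from genotype for these 2. edgeR and DESeq2 were not run where E11.5 cortices entered. With 3 libraries a group and 4732781 reads in the shallowest, *Wnt3a* and *Wnt2b* could not be compared.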
